A study of Mus musculus with 6 samples.

Results

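The 10 genes described here encode feedback inhibitors and a transcription factor that the RAS-RAF-MEK-ERK pathway induces: the dual-specificity phosphatase genes Dusp1, Dusp4, Dusp5 and Dusp6, the Sprouty genes Spry1, Spry2 and Spry4, the Spred genes Spred1 and Spred2, and the ETS factor gene Etv5. They were chosen by name, and all 10 were among the 18124 genes listed in the count table. All 10 passed the filter on low counts, which left 14644 genes. The cells were mesenchymal stem cells sorted from quadriceps of 6 naïve male Col1-eGFP mice as GFP-positive, Sca-1-positive cells, where GFP is driven by a collagen 1 promoter, and they were cultured to passage 4. All libraries came from this Col1-GFP genotype and from cells given conditioned medium of bone marrow-derived macrophages for 72 hours. The macrophages had been differentiated with M-CSF for 7 days, and the time of medium collection was 48 hours for all libraries. The 3 libraries of the control group had medium of control, non-senescent macrophages. The other 3 had medium of macrophages exposed to 300 µM hydrogen peroxide for 3 hours, exposed again after 3 days, and cultured for 14 days more. The labels do not say whether mice were pooled, whether libraries came from separate cultures, or how long control macrophages were kept, so the p-values rest on a spread between libraries that may be technical.

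Growth factor receptors switch on RAS, which acts through the kinases RAF, MEK and ERK to drive the division of fibroblasts and stromal cells. ERK in turn induces genes whose products shut the pathway down: dual-specificity phosphatases remove the activating phosphates from ERK and its relatives, Sprouty proteins act between receptor and RAF, and Spred proteins bring the RAS-inactivating protein neurofibromin to the membrane. RNA levels of these feedback genes are often read as a measure of ERK output, although other signals, such as stress kinases and cyclic AMP, act on some of them too. RNA of the genes was measured here, and phosphorylation of ERK was not.

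The deposited values were estimated counts per gene, and library totals ran from 17228200 to 21659400. Levels are given as CPM, counts scaled to the TMM-adjusted library size. Collagen gene Col1a1, whose promoter marks the sorted cells, and the Sca-1 gene Ly6a were abundant (5361 and 1206 CPM in control medium). In senescent macrophage medium their means were 7516 and 1235 CPM. Of the other stromal markers, Col1a2, Dcn, Thy1 and Cd34 had higher means in senescent macrophage medium. Pdgfra had a lower one (265.2 CPM in control and 217.0 CPM in senescent macrophage medium), and Lum was at 0.24 CPM or less in every library. Of 12 macrophage markers 8 were not listed, among them Ptprc and Adgre1, and the summed level of the rest was 11.9 to 14.3 CPM in control and 15.0 to 20.1 CPM in senescent macrophage medium. These markers differed in direction: the mean of Lyz2 was higher in senescent macrophage medium (6.71 and 11.65 CPM) and that of Csf1r lower (4.62 and 3.2 CPM). Of 7 muscle cell markers only Des was listed (1.41 to 1.89 and 4.33 to 5.86 CPM). Of 7 endothelial and pericyte markers 3 were not listed, and the sum of the others was 11 to 16.8 and 23.3 to 27.0 CPM. Most of that sum was Cspg4 (means of 10.76 and 21.3 CPM). The mean of Kdr was also higher in senescent macrophage medium (0.71 and 1.68 CPM), and that of Rgs5 was lower (2.765 and 2.148 CPM). The part of other cells in the differences below was not tested. In bulk RNA, fewer cells that express a gene and less of its RNA per cell cannot be told apart.

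The feedback genes moved in both directions in senescent macrophage medium. Dusp4, Dusp5, Dusp6 and Spry2 rose, Dusp1 and Spry4 fell, and Spry1, Spred1, Spred2 and Etv5 did not pass the threshold (edgeR's quasi-likelihood test, p adjusted by Benjamini-Hochberg over all 14644 genes, threshold 0.05). Thus 6 of 10 members (60.0%) were called, where 49.5% of all tested genes were called. In each direction, 4 members were higher beside 24.6% of all genes, and 2 were lower beside 24.9%. The median log2 fold change of the 10 members was 0.107, against −0.000961 over all tested genes. Their median absolute log2 fold change was 0.245, against 0.229 over all genes, and no member reached an absolute value of 1. The libraries of both media did not overlap for 8 of the 10 members, and for 55.8% of all genes. The summed CPM of the members was 375 to 410 in control and 388 to 409 in senescent macrophage medium, so the sums overlapped. With libraries scaled by their totals alone, 2 members were higher (Dusp4 and Dusp6, beside 17.7% of all genes) and 2 were lower (Dusp1 and Spry4, beside 32.9%), and over all genes 2589 were higher and 4813 lower, against 3607 and 3644 with TMM. At an adjusted p under 0.01, 2 were higher (19.0% of all genes) and 1 lower (19.4%). When edgeR tested against a fold of 1.2, 0 members were higher (9.95% of all genes) and 1, Dusp1, was lower (10.2%), shares near those over all genes.

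**Figure D1:**
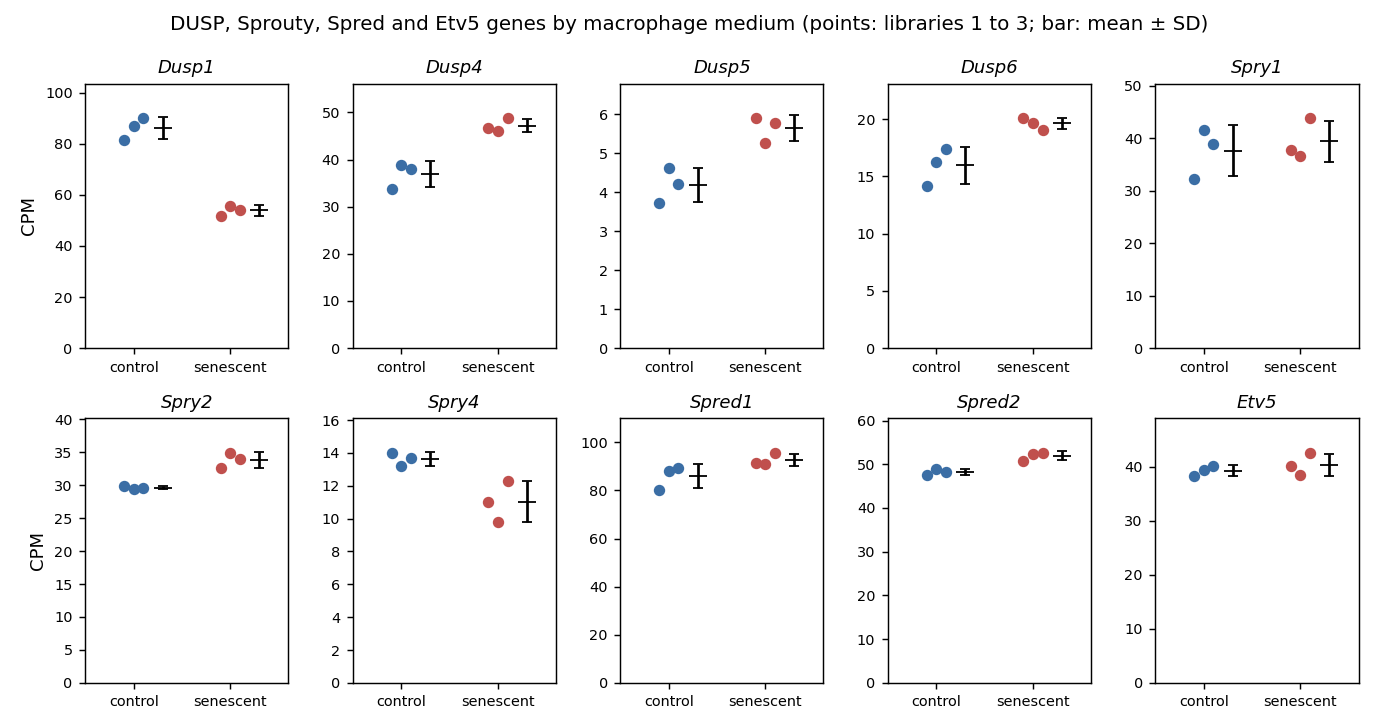
CPM of each member (vertical axes, from 0) in the 3 libraries of control (blue) and senescent (red) macrophage medium, with mean ± SD. Dusp1 and Spry4 lie lower and Dusp4, Dusp5, Dusp6 and Spry2 higher in senescent macrophage medium, and only Spry1 and Etv5 have overlapping libraries.

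Dusp1 (ENSMUSG00000024190) had the largest difference of the 10. It encodes MKP-1, a nuclear phosphatase that acts on p38 and JNK as well as on ERK and is an immediate early gene of stress and mitogens. Its levels were 81.5, 86.8 and 90.0 CPM in control replicates 1, 2 and 3 and 51.7, 55.7 and 54.2 CPM in the senescent-medium replicates. Every senescent-medium library was below every control library. The mean went from 86.1 ± 4.30 to 53.9 ± 2.03 CPM (SD, n = 3), and it fell by 37.5%, which is −0.68 ± 0.050 (SE) in log2 fold change with an edgeR adjusted p of 8.18e-13.

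Dusp4 and Dusp5, both nuclear phosphatases, moved the other way. Dusp4 (ENSMUSG00000031530), which encodes MKP-2, was at 33.8, 38.9 and 38.1 CPM in control and at 46.8, 46.1 and 48.8 CPM in senescent macrophage medium. The groups did not overlap, and the log2 fold change was 0.35 ± 0.060 (adjusted p = 1.23e-05, edgeR). Dusp5 (ENSMUSG00000034765), a phosphatase specific for ERK, was the least abundant member, at 3.72, 4.61 and 4.22 CPM and then 5.90, 5.27 and 5.77 CPM. It rested on 66 to 123 counts per library, and its log2 fold change of 0.43 ± 0.15 had a 95% interval from 0.117 to 0.740 (adjusted p = 0.0201, edgeR). An annotated gene on the opposite strand overlaps 22.1% of its exon bases, and whether counting used strand is not stated. The Dusp5 call was lost with DESeq2 (adjusted p = 0.0669), with library totals (0.0584), and, in edgeR, when control replicate 1 (0.0841), senescent-medium replicate 1 (0.0664) or senescent-medium replicate 3 (0.0550) was left out.

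Dusp6 (ENSMUSG00000019960), which encodes the cytoplasmic ERK phosphatase MKP-3 and is a widely used readout of ERK activity, rose by a small amount. It was at 14.2, 16.3 and 17.4 CPM in control and at 20.1, 19.7 and 19.1 CPM in senescent macrophage medium. The lowest senescent-medium library lay above the highest control library. The mean went from 16.0 ± 1.64 to 19.6 ± 0.489 CPM, which is 0.30 ± 0.086 in log2 fold change (adjusted p = 0.00489, edgeR), and its 95% interval ran from 0.121 to 0.473.

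Promoter sequences are shown for Dusp1, Dusp5 and Dusp6, phosphatase genes that moved in opposite directions. From the RefSeq table of promoters (build GRCm38.p6, older than the mm39 build of the counts), 9 promoters of 8 of the 10 members were used. Dusp4 and Spry4 were not among them. The selection of member promoters left out the entries of a chromosome, so a member missing here may still be in that table. The 250 bases before each start are printed 5′ to 3′, with motif matches in capitals: chr17:26508473-26508722, minus strand for Dusp1, chr19:53528895-53529144, plus strand for Dusp5 and chr10:99262981-99263230, plus strand for Dusp6.
Dusp1: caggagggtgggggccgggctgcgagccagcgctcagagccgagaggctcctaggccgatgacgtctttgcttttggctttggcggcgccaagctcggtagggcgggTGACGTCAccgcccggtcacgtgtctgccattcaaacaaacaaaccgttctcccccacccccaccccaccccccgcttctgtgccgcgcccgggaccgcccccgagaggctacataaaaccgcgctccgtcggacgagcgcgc
Dusp5: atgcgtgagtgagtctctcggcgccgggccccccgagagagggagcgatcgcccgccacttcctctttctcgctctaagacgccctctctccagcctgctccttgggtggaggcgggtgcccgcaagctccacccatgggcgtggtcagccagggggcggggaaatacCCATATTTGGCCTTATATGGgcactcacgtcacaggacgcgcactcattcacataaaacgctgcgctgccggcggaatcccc
Dusp6: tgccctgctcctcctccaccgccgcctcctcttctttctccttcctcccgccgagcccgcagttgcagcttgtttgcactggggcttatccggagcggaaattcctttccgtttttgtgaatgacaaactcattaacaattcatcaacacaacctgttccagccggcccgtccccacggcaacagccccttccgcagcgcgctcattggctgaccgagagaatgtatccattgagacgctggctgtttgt
The capitals mark a cyclic AMP response element in Dusp1 and a pair of adjacent CArG boxes, the serum response factor motif, in Dusp5. The motifs searched on both strands were the cyclic AMP response element TGACGTCA, the AP-1 site TGANTCA, the ETS sequence CCGGAA and the CArG box. Shorter or other forms of these motifs, such as GGAA alone for ETS factors, were not searched. The Dusp1 match begins 143 bases before the start, and 1.55% of all 32851 promoters of that length hold the same element. The Dusp5 matches begin 82 and 72 bases before the start, and 1.47% of all promoters hold a CArG box. The AP-1 letters were found in 6.75% and the ETS letters CCGGAA in 12% of all promoters, and in 0 of the 9 member promoters. Dusp6, Spry1, Spry2, Spred1, Spred2 and Etv5 held none of the 4 motifs in these windows.

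Among the Sprouty genes, Spry2 rose, Spry4 fell and Spry1 was not called. Spry2 (ENSMUSG00000022114), an inhibitor of receptor signalling to RAS that is itself induced by growth factors, was at 29.8, 29.4 and 29.6 CPM in control and 32.6, 34.9 and 34.0 CPM in senescent macrophage medium. The groups did not overlap, but the difference was small, at 0.19 ± 0.063 in log2 fold change (adjusted p = 0.0116, edgeR). It missed the threshold with library totals (log2 fold change 0.11, adjusted p = 0.147) and without senescent-medium replicate 2 (0.17, adjusted p = 0.0523, edgeR). Spry4 (ENSMUSG00000024427), a family member that also restrains RAF activation, was at 14.0, 13.2 and 13.7 CPM in control and 11, 9.80 and 12.3 CPM in senescent macrophage medium. All 3 senescent-medium libraries were lower than the controls, at −0.30 ± 0.10 in log2 fold change (adjusted p = 0.0141, edgeR). The Spry4 call was lost without senescent-medium replicate 2, its lowest library (−0.22, adjusted p = 0.0994, edgeR).

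Spry1 (ENSMUSG00000037211), which holds muscle satellite cells in quiescence, had overlapping libraries. It was at 32.2, 41.6 and 38.9 CPM in control and 37.8, 36.5 and 43.8 CPM in senescent macrophage medium. The log2 fold change was 0.064 ± 0.093, with a 95% interval from −0.139 to 0.267 (adjusted p = 0.605, edgeR), and it was below 0 without control replicate 1 (−0.035) or senescent-medium replicate 3 (−0.018). A gene on the opposite strand overlaps 24.4% of its exon bases.

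The Spred genes and Etv5 differed little between the media. Spred1 (ENSMUSG00000027351), the gene of the neurofibromin partner that is mutated in Legius syndrome, was at 80.2, 88.2 and 89.2 CPM and then at 91.4, 91.0 and 95.6 CPM. Its libraries did not overlap, yet it missed the threshold (log2 fold change 0.11 ± 0.046, adjusted p = 0.0515, edgeR). It passed without control replicate 2 (adjusted p = 0.0493, edgeR) or control replicate 3 (0.0383), while its log2 fold change was 0.061 without control replicate 1 (0.271) and 0.028 with library totals (0.648). Spred2 (ENSMUSG00000045671), its close relative, was at 47.6, 48.9 and 48.3 CPM and then at 50.8, 52.4 and 52.6 CPM, or 0.11 ± 0.052 in log2 fold change (adjusted p = 0.0948, edgeR). The upper bounds of the 95% intervals were 0.204 for Spred1 and 0.212 for Spred2.

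Etv5 (ENSMUSG00000013089), a transcription factor of the PEA3 group whose RNA follows FGF and ERK signalling in many tissues, was at 38.3, 39.5 and 40.2 CPM in control and 40.1, 38.5 and 42.6 CPM in senescent macrophage medium. The libraries overlapped, and the 95% interval of its log2 fold change of 0.039 ± 0.059 ran from −0.082 to 0.159 (adjusted p = 0.618, edgeR).

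**Figure D2:**
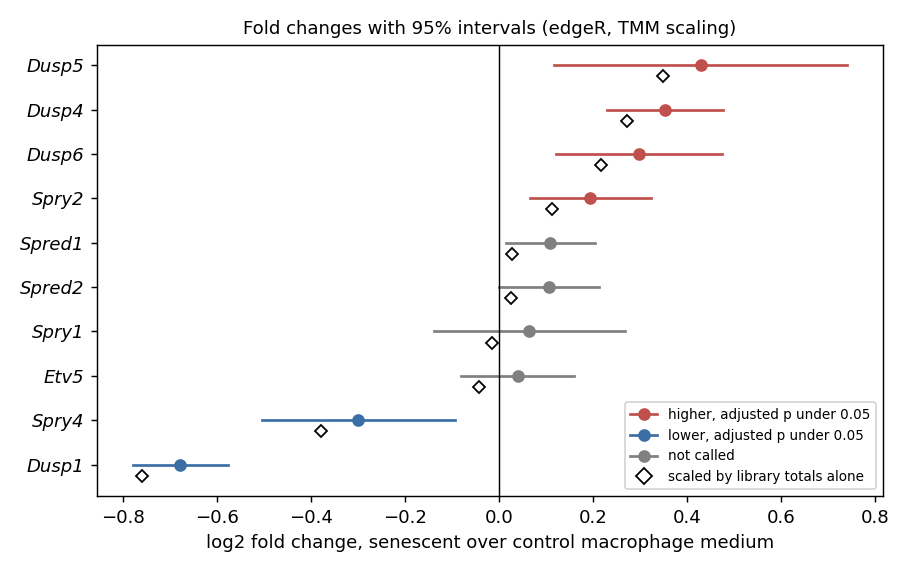
Log2 fold change of each member, senescent over control macrophage medium, with 95% intervals (points and lines, TMM scaling) and the value with library totals alone (open diamonds). Dusp1 at −0.68 lies apart from the other 9 members, which lie between −0.30 and 0.43, and the diamonds lie lower for all 10 members, as does the median of all genes with that scaling (−0.0818).

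Scaled per kilobase of annotated exon, the order of the members' levels differed between the media at its upper end. In control medium Dusp1 was highest, at 26.0 ± 1.30 CPM per kilobase, followed by Spry2 (14.2 ± 0.0915), Dusp4 (13.5 ± 1.00), Spry1 (12.9 ± 1.67) and Spred1 (12.7 ± 0.730), each of these 4 within 1 SD of its neighbour when the larger SD is taken. Spred2 (10.4 ± 0.149), Etv5 (9.59 ± 0.234), Dusp6 (5.10 ± 0.524), Spry4 (2.87 ± 0.0788) and Dusp5 (1.69 ± 0.181) came after them, each separated from the next by more than the larger of their SDs. In senescent macrophage medium Dusp4 was highest (17.2 ± 0.527), followed by Dusp1 (16.3 ± 0.614) and Spry2 (16.2 ± 0.556), which were within 1 SD of each other, and Spry4 (2.32 ± 0.264) and Dusp5 (2.28 ± 0.134) were within 1 SD of each other.

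Ratios within a library do not depend on how libraries are scaled, and 3 were taken after the values had been seen. The ratio of Dusp6 to Dusp1 counts was 0.174, 0.187 and 0.194 in control and 0.389, 0.353 and 0.353 in senescent macrophage medium. The ratio of Dusp4 to Dusp1 was 0.415, 0.448 and 0.423 and then 0.904, 0.827 and 0.901. Thus the balance of Dusp1 with the Dusp6 and Dusp4 transcripts differed between the media in all libraries. The differences were 0.98 for Dusp6 and 1.03 for Dusp4 on the log2 scale. Both ratios share Dusp1, whose own log2 fold change was −0.678, beside 0.297 for Dusp6 and 0.353 for Dusp4. They are therefore not separate results. The ratio of Spry2 to Spry4 was 2.13, 2.22 and 2.16 in control and 2.96, 3.57 and 2.77 in senescent macrophage medium, a difference of 0.50 on the log2 scale. As the pairs were picked for their difference, no test is given.

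**Figure D3:**
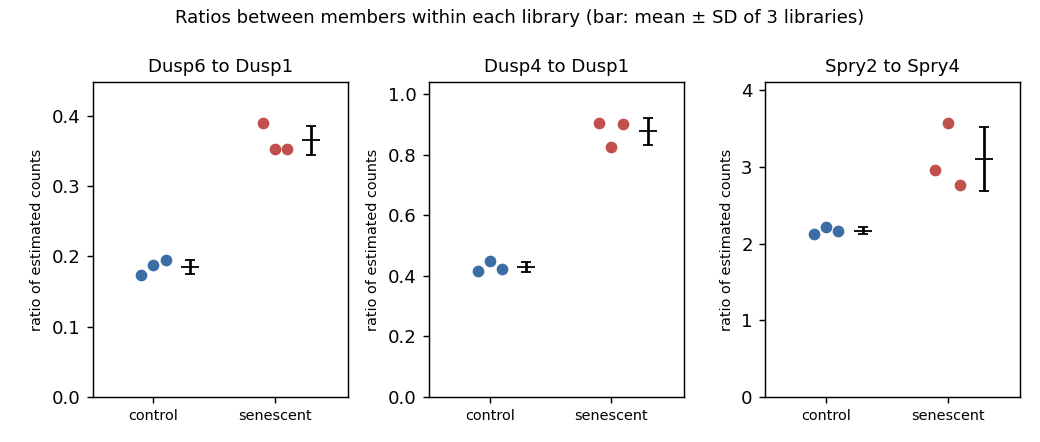
Ratio of estimated counts between pairs of members in each library (vertical axes, from 0), by medium, with mean ± SD of 3 libraries. The senescent-medium libraries lie above the control libraries in each panel, from 0.353 to 0.389 against 0.174 to 0.194 for Dusp6 to Dusp1.

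Control replicate 1 had the lowest control level for 8 of the 10 members, all but Spry2 and Spry4, and for 35.6% of all tested genes. It was also lowest for 4 of 5 other phosphatase genes, 11 of 14 negative regulators, 10 of 12 receptors and 13 of 18 ERK-induced genes. The same held for 11 of 16 ligands, but only for 11 of 27 cascade genes and 6 of 18 proliferation genes. Without that library the log2 fold changes of Dusp4 and Dusp6 were 0.29 and 0.22 (adjusted p = 0.000117 and 0.0403, edgeR), and that of Dusp1 was −0.72.

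Counts in the following lists stand beside 24.6% of all tested genes higher and 24.9% lower. Relatives outside the 10 members also moved both ways. Of 5 tested phosphatase genes of the same class (Dusp7, Dusp8, Dusp9, Dusp10 and Dusp16), 3 fell and 0 rose; their median log2 value was −0.435. Dusp16, whose product acts mainly on JNK, fell from 23.6 ± 0.967 to 16.9 ± 2.12 CPM (−0.48 ± 0.086) and Dusp10, a phosphatase of p38 and JNK, from 20.5 ± 0.878 to 15.2 ± 0.250 CPM (−0.43 ± 0.082). Dusp8 fell as well, and Dusp2 was too low to test. Among the other Sprouty, Spred and PEA3 genes, Spred3 rose from 24.0 ± 1.5 to 34.1 ± 4.48 CPM (0.51 ± 0.082). Etv1, a close relative of Etv5, fell from 6.21 ± 1.46 to 3.01 ± 0.643 CPM (−1.05 ± 0.18), while Etv4 was not called and Spry3 was not listed.

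Genes that ERK signalling induces in many cells moved both ways. Of 18 such genes outside the 10 members, 6 rose and 6 fell; their median log2 value was −0.107. Of the list 66.7% was called, beside 49.5% of all tested genes. The D-type cyclin gene Ccnd1, which links ERK to the start of the cell cycle, rose from 444.6 ± 12.8 to 701.9 ± 15.5 CPM (0.66 ± 0.034, adjusted p = 1.45e-16, edgeR). A gene on the opposite strand overlaps 23.4% of its exon bases. The immediate early factor gene Egr1 rose from 26.3 ± 1.28 to 36.9 ± 1.62 CPM (0.49 ± 0.065), and the ephrin receptor gene Epha4 fell from 12.6 ± 0.525 to 8.44 ± 0.355 CPM (−0.58 ± 0.10). Of 14 other negative regulators of the pathway, 4 rose and 6 fell. Errfi1, an induced inhibitor of the EGF receptor, fell from 199 ± 8.49 to 138.8 ± 6.89 CPM (−0.52 ± 0.041), and Pea15a, which keeps ERK in the cytoplasm, rose from 235.3 ± 2.91 to 291 ± 8.21 CPM (0.31 ± 0.035).

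Upstream of the feedback genes, log2 fold changes ranged from −1.73 to 0.77 for ligands, from −1.105 to 0.32 for receptors and from −0.52 to 0.74 for the cascade. In the RAS-RAF-MEK-ERK cascade 8 of 27 genes rose and 7 fell, with a median of −0.008. That is 55.6% called, near the 49.5% of all genes. With library totals 3 rose and 11 fell, a swing that all genes share (17.7% higher and 32.9% lower). Nras rose from 57.9 ± 1.75 to 96.8 ± 0.817 CPM (0.74 ± 0.046), the adaptor gene Shc1 from 260.8 ± 5.26 to 364.5 ± 2.00 CPM (0.48 ± 0.034), and the scaffold gene Ksr1 fell from 74.1 ± 3.17 to 52.8 ± 1.83 CPM (−0.49 ± 0.050). Of 12 tested growth factor receptor genes 4 rose and 7 fell (91.7% called, beside 49.5% of all genes). The FGF receptor gene Fgfr2 fell from 27.1 ± 0.878 to 15.2 ± 0.951 CPM (−0.84 ± 0.078) and the PDGF receptor gene Pdgfrb from 593 ± 13.1 to 483 ± 15.0 CPM (−0.30 ± 0.034), while the collagen receptor gene Ddr2 rose (0.28 ± 0.034). Of 16 tested ligand genes 5 rose and 6 fell (68.8% called). Fgf10, a ligand of Fgfr2, fell from 38.0 ± 2.47 to 11.4 ± 0.166 CPM (−1.73 ± 0.077), Hgf, the ligand of the receptor Met, changed by −0.71 ± 0.039, and the KIT ligand gene Kitl rose from 72.5 ± 5.22 to 123 ± 4.68 CPM (0.77 ± 0.048).

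Proliferation genes were lower in senescent macrophage medium. Of 18 such genes 17 fell and 0 rose; their median log2 value was −1.26, and 12 of them changed by at least 1 on the log2 scale. Mki67, the gene of the proliferation antigen Ki-67, had a log2 fold change of −1.45 ± 0.062. Top2a and Cdk1, which encode a chromosome-untangling enzyme and the mitotic kinase, changed by −1.44 ± 0.047 and −1.50 ± 0.063. In the same fit the feedback genes ranged from −0.678 to 0.429.

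**Figure D4:**
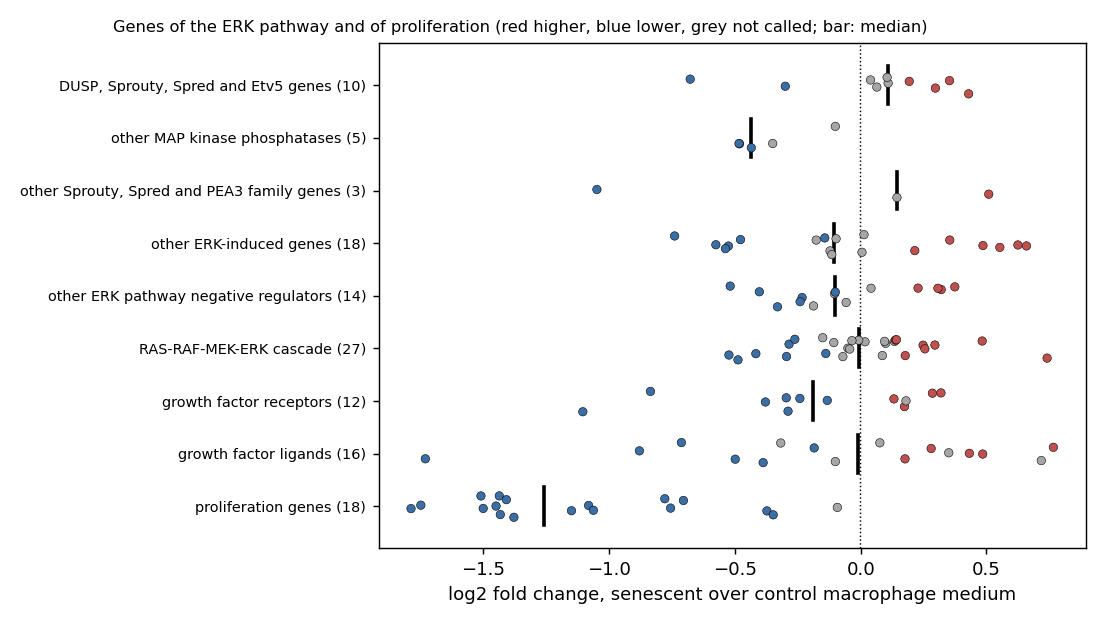
Log2 fold changes of tested genes in each list (points; red higher, blue lower, grey not called; number tested in brackets; black bars are medians, dotted line the median of all tested genes). The members, with a median of 0.107, lie near 0 with points on both sides, whereas the proliferation genes lie below 0, with a median of −1.26.

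Levels over the 6 libraries were compared with those of Dusp1 and Dusp4, leaving out genes without a proper name, such as Gm and Rik genes. Among the rest, those most like Dusp1 were Polr3b, Hif1a and Smc3 (Pearson's r of log2 CPM 0.9992, 0.999 and 0.9988). Those most like Dusp4 were Acvr2a, Hemk1 and Wdr89 (0.9987, 0.9976 and 0.9971). These coefficients describe 6 libraries that fall into the groups of the media. Counting genes of any name outside the members, 520 had an r over 0.98 with Dusp1, and 89 with Dusp4.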

How the data were processed

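RNA of 6 libraries, 3 per medium, was sequenced with paired reads of 150 bp. The authors deposited estimated counts per Ensembl gene, not normalized; STAR, DESeq2 and mm39 are named without roles per the submitters' processing notes, and the counter, annotation release and strandedness are not stated in the sources used here. Symbols came from a reference list of gene names, or from GENCODE M21 for identifiers missing from that list (99.8% of 18124 identifiers matched). Exon lengths and overlaps came from GENCODE M21. Every listed gene summed to at least 10 counts, so an unlisted gene has no value.

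Counts were rounded and tested with edgeR 4.0.16 (R 4.3.3, TMM, expression filter, robust quasi-likelihood F-test, two-sided). The fit was first run on simulated data in which far fewer genes changed than were called here. That run therefore does not check the scaling for a difference this broad. Groups came from sample titles, with the medium as the only term. Log2 CPM used a prior count of 2. The SE is the size of the log2 fold change over the root of its F value. Alternatives were DESeq2 1.42.0, voom in limma 3.58.1, other scalings, filters and thresholds, a minimum fold, a replicate block and each library left out; leaving out the most abundant gene was added after the data were seen.

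The members and lists were chosen with earlier results of these data known. Named genes are all members, the 2 genes per list with the smallest adjusted p and the first called in the other direction, Mki67, Ccnd1, and the 3 properly named genes most correlated with each of the 2 members of smallest adjusted p. Dusp2, Dusp7, Dusp8, Dusp9, Etv4 and Spry3 were named outside that rule, after their values were seen, as were the marker genes.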

Additional observations from a re-analysis of the deposited data

How the results depend on the processing

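Library totals alone moved the median of all genes from −0.000961 to −0.0818. With them 2 members were higher, the members' median log2 fold change was 0.026, and Dusp5 (0.35) and Spry2 (0.11) lost their calls. Spry1 (−0.016) and Etv5 (−0.042) changed sign with that common shift, which says nothing about these genes; 3 cascade genes rose and 11 fell, 2 receptor and 3 ligand genes rose. At an adjusted p of 0.01, 2 members were higher and 1 lower: Dusp5 (0.43), Spry2 (0.19) and Spry4 (−0.30) were lost, and 4 cascade and 3 ligand genes rose. Tested against a fold of 1.2 (glmTreat), 0 members were higher and 1, Dusp1, was lower; Dusp4 (0.35), Dusp5 (0.43), Dusp6 (0.30), Spry2 (0.19) and Spry4 (−0.30) were lost, with adjusted p of 0.0962, 0.186, 0.433, 1.0 and 0.445. In that test 3 ERK-induced genes fell, 0 negative regulators rose and 1 fell, 2 cascade genes rose and 3 fell, 0 receptor genes rose and 2 fell, and 2 ligand genes rose. DESeq2 lost Dusp5 (0.43), which was too low to enter the test at 5 CPM. Spred1 passed with upper quartile scaling (0.13), with a mean of at least 5 CPM (0.11) and with the replicate block, and Spred2 with upper quartile scaling (0.13). Without a low-count filter 1 other phosphatase gene, Dusp2, rose. It had 0 counts in every control library and 1, 8 and 1 in senescent-medium replicates 1, 2 and 3. With at least 5 CPM, 0 other Sprouty, Spred and PEA3 genes and 3 ERK-induced genes fell. The cause of these changes was not tested. The fit was unpaired because the labels do not say that equal replicate numbers mark a shared culture or day. Libraries of equal number correlated at 0.00189 to 0.0262 in their deviations. With the replicate block in edgeR, Spred1 was called (0.11, adjusted p = 0.0407), and no other member's call changed.

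Leaving out one library at a time, log2 fold changes ranged from −0.717 to −0.647 for Dusp1, 0.292 to 0.394 for Dusp4, 0.351 to 0.51 for Dusp5, 0.22 to 0.359 for Dusp6, −0.035 to 0.148 for Spry1, 0.172 to 0.22 for Spry2, −0.383 to −0.222 for Spry4, 0.061 to 0.134 for Spred1, 0.093 to 0.123 for Spred2 and −2.9e-05 to 0.073 for Etv5. Spry1 was −0.035 without control replicate 1 and −0.018 without senescent-medium replicate 3, and Etv5 was −2.9e-05 without the latter. The count of members ranged from 3 to 5 higher and from 1 to 2 lower, and their median from 0.077 to 0.139. Dusp1, Dusp4 and Dusp6 kept their calls in all 6 of these fits. Dusp5 had 66 to 123 counts per library, the fewest of the members; what depth contributed was not tested.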
